A study of Mus musculus with 40 samples.

Results

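Sox9 and 9 genes that encode proteins of the cartilage matrix were followed in rib tissue of immature and mature mice, both at baseline and after a stretch of rib was surgically removed. The 10 genes, Sox9, Col2a1, Col9a1, Col9a2, Col9a3, Col10a1, Col11a1, Col11a2, Acan and Matn3, were chosen by symbol, and all 10 were among the 21204 genes that passed the authors' filter, out of 48733 genes counted. Bulk RNAseq was performed on composite tissue of bone, bone marrow and intercostal muscle from wild type mice, which the methods describe as female C75BL/6 animals. Immature mice were 7 weeks old and mature mice were more than 10 months old, and no other treatment distinguished the groups. Tissue was taken at baseline (BL), on the day of resection (0dpr) and 2, 5, and 14 days post-resection (2dpr, 5dpr, 14dpr). The labels describe the tissue of every library, baseline included, as collected after resection, whereas the methods of the imaging place baseline before it. Baseline is taken here as before resection, and every comparison against BL rests on that reading. There were 4 libraries for each age at each stage, except for 3 of mature mice at 5dpr, where replicate 2 was not analysed here. The question behind the design is why large rib defects regenerate in immature but not in mature mice. The comparisons ask how the cartilage genes differed between the ages at each stage and how they changed from stage to stage at each age.

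Fractures commonly heal through a soft callus, whereas large bone defects generally do not heal by themselves and the rib is an exception. In a soft callus, mesenchymal cells condense, become chondrocytes and lay down cartilage that is later replaced by bone. SOX9 is the transcription factor that commits cells to the chondrocyte lineage and activates the genes of the cartilage matrix. Type II collagen (Col2a1) forms the core of the cartilage fibril, type XI collagen (Col11a1, Col11a2) nucleates the fibril and limits its width, type IX collagen (Col9a1, Col9a2, Col9a3) coats its surface, aggrecan (Acan) is the large proteoglycan that holds water, matrilin-3 (Matn3) links matrix components, and type X collagen (Col10a1) is made by hypertrophic chondrocytes, the last stage before cartilage is replaced by bone. Type XI chains are also made outside cartilage, including by osteoblasts.

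In the GRCm38 gene models, Sox9 (ENSMUSG00000000567) lies at chr11:112782224-112787760 on the plus strand and Col2a1 (ENSMUSG00000022483) at chr15:97975602-98004695 on the minus strand. The type IX genes lie on 3 chromosomes, with Col9a1 (ENSMUSG00000026147) at chr1:24177610-24252684, Col9a2 (ENSMUSG00000028626) at chr4:121039385-121055322 and Col9a3 (ENSMUSG00000027570) at chr2:180597790-180622189, all on the plus strand. Col10a1 (ENSMUSG00000039462) lies at chr10:34389981-34397085, Col11a1 (ENSMUSG00000027966) at chr3:114030540-114220718 and Col11a2 (ENSMUSG00000024330) at chr17:34039437-34066685, also on the plus strand. Acan (ENSMUSG00000030607) lies at chr7:79053483-79115099 and Matn3 (ENSMUSG00000020583) at chr12:8947929-8972028, on the plus strand. Values are counts of reads over the whole gene.

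The sequences upstream of 3 of these genes are shown as examples of the patterns of level described below, and not of a sequence shared within a pattern. Col9a1 and Col10a1 belong to a group that was near 0 at baseline and highest at 14dpr, while Col11a1 was abundant in every group. Each is the 250 bases before the RefSeq transcript start on the plus strand of GRCm38.p6. Capitals mark a SOX word in Col9a1, a SOX word and the TATA word (spelled TATAAA) in Col10a1, and the GC box (spelled GGGCGG) in Col11a1. A SOX word is CAA followed by either A or T and then G, and preceded by a pair of letters each of which is A or T. All words were searched on both strands.
Col9a1, chr1:24177360-24177609: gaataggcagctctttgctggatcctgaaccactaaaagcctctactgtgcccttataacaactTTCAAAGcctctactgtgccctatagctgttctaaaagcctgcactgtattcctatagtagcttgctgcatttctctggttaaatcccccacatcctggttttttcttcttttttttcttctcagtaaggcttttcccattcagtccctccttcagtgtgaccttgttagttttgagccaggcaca
Col10a1, chr10:34389731-34389980: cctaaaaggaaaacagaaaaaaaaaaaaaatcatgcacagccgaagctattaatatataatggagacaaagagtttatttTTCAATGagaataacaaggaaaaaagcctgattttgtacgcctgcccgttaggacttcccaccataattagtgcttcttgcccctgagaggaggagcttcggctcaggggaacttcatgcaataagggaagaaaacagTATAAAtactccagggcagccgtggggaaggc
Col11a1, chr3:114030290-114030539: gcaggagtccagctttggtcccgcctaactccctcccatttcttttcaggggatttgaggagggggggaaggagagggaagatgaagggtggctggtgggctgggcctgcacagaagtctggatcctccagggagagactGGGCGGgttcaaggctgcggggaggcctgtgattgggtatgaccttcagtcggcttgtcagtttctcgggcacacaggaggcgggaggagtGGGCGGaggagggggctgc
The SOX word lay 186 bases upstream of the start in Col9a1 and 170 bases upstream in Col10a1, whose TATA word lay 32 bases upstream. The 2 GC boxes of Col11a1 lay 110 and 19 bases upstream. Windows were at hand for 7 of the 10 genes (8 windows, 2 of them of Col9a1) and not for Sox9, Col2a1 and Col9a3. A SOX word was present in 3 of the 8 windows, those of Col9a1 (1 of its 2 windows), Col9a2 and Col10a1, against 21.8% of 32851 windows of all genes. A GC box was present in 5 of the 8 (Col9a2, Col11a1, Col11a2, Acan and Matn3), against 32.7% of all windows. A TATA word was present in 2 of the 8 (Col10a1 and Col11a2), against 12.4%, and the RUNX word TGTGGT in none of the 8, against 14%. The GC box and TATA words did not divide by pattern of level. Col9a2 and Matn3 hold GC boxes as Col11a1 does, and Col11a2 holds a TATA word as Col10a1 does. The SOX word was found only in genes of the group near 0 at baseline. Within that group it was absent from Matn3 and from 1 of the 2 windows of Col9a1. With 8 windows, this was not tested. A match to these letters is a description of the sequence and was not tested as a binding site.

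Depth was between 6075355 and 21546977 counted reads per library (median 9092201), so that 1 read corresponded to between 0.0463 and 0.159 CPM (a read count scaled to a common library size with TMM factors). One library stood apart from the rest: mature 2dpr replicate 3 had a read in 14380 genes, against 20768 to 25778 in the other 38, and correlated least with its own group (mean r = 0.893, against 0.922 to 0.981). All 20 skeletal muscle genes and all 11 osteoblast and osteocyte genes looked at had reads in every group, as the labelled tissue should, and their summed levels differed widely between stages. The muscle sum ran from 88659 to 115247 CPM in immature BL libraries, from 127212 to 231201 at 0dpr and from 19633 to 31789 at 2dpr. In mature mice it ran from 48955 to 94266, from 132201 to 262890 and from 16317 to 32253. In bulk tissue, fewer cells of a type and less RNA per cell cannot be told apart. The libraries were sequenced in separate runs, but the labels do not say which library was in which run, and the part of the run was not tested. It is not stated whether each library is 1 animal, so that p-values measure the spread between these samples only.

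**Figure D1:**
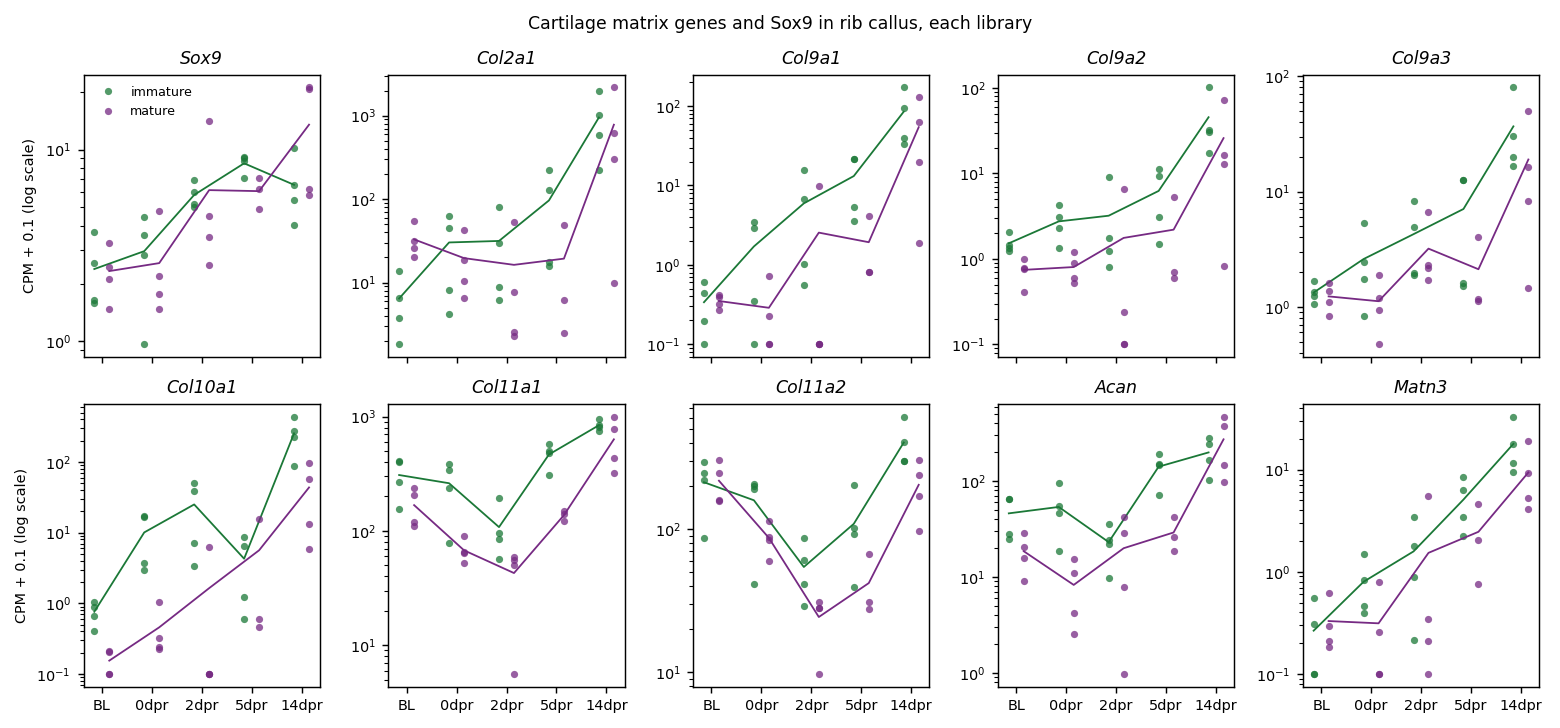
CPM of each of the 10 genes (y axis, CPM + 0.1 on a log scale) at the 5 stages (x axis). Each point is 1 library (immature in green, mature in purple), and lines join the group means. Col2a1, the type IX genes, Col10a1 and Matn3 were highest at 14dpr at both ages, while Col11a1, Col11a2 and Acan were already well above 0 at baseline.

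Per kilobase of exon, which allows genes to be compared, type XI collagen was the most abundant of the cartilage genes at baseline. The mean level of Col11a2 was 30.8 CPM per kb in immature and 31.6 in mature mice, and that of Col11a1 was 24.2 and 13.2. In immature mice, Acan followed with 6.17 and Col2a1 with 0.687 CPM per kb, and in mature mice Col2a1 followed with 3.55 and Acan with 2.48 CPM per kb. By 14dpr this order was different, with Col2a1 first at both ages (103 CPM per kb in immature and 84.4 in mature mice). Col10a1 was the second most abundant of the 10 genes in immature mice at 14dpr (81.3 CPM per kb), and Col11a1 in mature mice (49.6 CPM per kb).

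Between baseline and 14dpr, 9 of the 10 genes rose at each age (adjusted p under 0.05 by edgeR's quasi-likelihood test with Benjamini-Hochberg adjustment over all genes). Of all genes tested, 31.4% passed in either direction and 16.4% as higher in immature mice, and 33.5% and 17.1% did in mature mice. The median log2 fold change of the 10 genes was 4.94 in immature and 4.30 in mature mice, against -0.0388 and -0.0318 over all genes. The exception at both ages was Col11a2. Its log2 fold change was 0.92 in immature mice (edgeR adjusted p = 0.126) and -0.10 in mature mice (edgeR adjusted p = 0.901).

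Col2a1, the core collagen of cartilage, had 13.6, 3.71, 6.36 and 1.72 CPM in the 4 immature libraries at baseline and 1972, 226, 1015 and 594 CPM at 14dpr. In mature mice, it had 25.6, 54.2, 31.5 and 20.1 CPM at baseline and 622, 302, 2183 and 9.87 CPM at 14dpr. Every immature library at 14dpr was above every immature baseline library, whereas 1 mature 14dpr library, replicate 4, was below all 4 mature baseline libraries. The log2 fold change was 7.25 ± 1.41 (SE) in immature mice (edgeR adjusted p = 0.000105) and 4.57 ± 1.22 in mature mice (edgeR adjusted p = 0.00322). Leaving out immature 14dpr replicate 1 or immature BL replicate 2 gave 6.61 and 7.94, and leaving out mature 14dpr replicate 3 gave 3.24. The change in the 2 ages did not differ by the interaction test (2.68, 95% interval -0.53 to 5.89, edgeR adjusted p = 0.707).

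The type IX collagen genes, whose products coat the type II fibril, started from a few reads. Col9a1 had 0 to 5 reads in each immature baseline library (0.343, 0.515, 0 and 0.0957 CPM) and 172, 33.2, 94.8 and 39.6 CPM at 14dpr. In mature mice, Col9a1 had 0.314, 0.168, 0.296 and 0.224 CPM at baseline and 62.9, 19.9, 132 and 1.77 CPM at 14dpr. The groups did not overlap at either age. The log2 fold change of Col9a1 was 8.40 ± 1.51 in immature mice (edgeR adjusted p = 3.49e-05) and 7.70 ± 1.48 in mature mice (edgeR adjusted p = 8.55e-05). Col9a2 rose by 4.99 ± 1.08 and 5.30 ± 1.15 on the log2 scale (edgeR adjusted p = 0.000431 and 0.000402). Col9a3 rose by 4.89 ± 0.851 and 4.03 ± 0.831 (edgeR adjusted p = 2.28e-05 and 0.000216). Reads of Col9a3 are uncertain, since the gene overlaps Tcfl5 on the opposite strand and the strand setting of the counting is not stated. In mature mice, Col9a2 and Col9a3 at 14dpr overlapped with baseline through replicate 4, which had 0.727 and 1.35 CPM. With 14dpr replicate 1 left out, the change in immature mice was 7.80 for Col9a1, 4.22 for Col9a2 and 4.17 for Col9a3, and it was 9.11 for Col9a1 without BL replicate 3. With mature 14dpr replicate 3 left out, it was 6.76, 3.94 and 2.88, and every one of these values passed the threshold.

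Col10a1, the collagen of hypertrophic chondrocytes, had 3 to 10 reads in each immature baseline library (0.80, 0.309, 0.567 and 0.957 CPM) and 433, 226, 88.4 and 270.3 CPM at 14dpr. In the mature libraries it had 0.105, 0, 0 and 0.112 CPM at baseline, 2 reads in all, and 13.0, 97.2, 58.1 and 5.82 CPM at 14dpr. Both ages were separate between the stages, and 3 of the 4 immature 14dpr libraries were above every mature one. The log2 fold change was 8.56 ± 1.32 in immature mice (edgeR adjusted p = 3.31e-06). In mature mice, the ratio of the 14dpr to the baseline reads, scaled by depth, was 879 with a counting interval of 243 to 7260 (edgeR adjusted p = 5e-05). Col10a1 overlaps Nt5dc1 on the opposite strand, so that its reads are uncertain in the same way as those of Col9a3.

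Matn3, which encodes matrilin-3, had at most 5 reads in any baseline library and 32.7, 11.5, 17.6 and 9.45 CPM in immature and 9.16, 5.14, 18.8 and 4.05 CPM in mature mice at 14dpr. It rose by 6.69 ± 1.17 and by 5.30 ± 1.10 on the log2 scale (edgeR adjusted p = 2.35e-05 and 0.000231). Left-out libraries moved these values between 6.22 and 7.79 (highest without immature BL replicate 4) and between 4.69 and 6.04 (lowest without mature 14dpr replicate 3, highest without mature BL replicate 1). Acan, the aggrecan gene, had 25.0, 27.9, 65.6 and 65.8 CPM at baseline and 284, 104, 243 and 166 CPM at 14dpr in immature mice. In mature mice it had 28.7, 15.7, 8.97 and 20.6 CPM at baseline and 466, 148, 380 and 97.8 CPM at 14dpr. The stages did not overlap at either age, with a log2 fold change of 2.11 ± 0.638 in immature mice (edgeR adjusted p = 0.0101) and 3.89 ± 0.692 in mature mice (edgeR adjusted p = 3.01e-05).

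Sox9, the transcription factor, was low at every stage and was detected in every library. It had 1.49, 2.47, 3.63 and 1.53 CPM at baseline in immature and 3.14, 2.35, 1.38 and 2.02 CPM in mature mice. At 14dpr, it had 10.1, 5.37, 6.40 and 3.93 CPM in immature and 20.7, 6.15, 21.1 and 5.71 CPM in mature mice. The stages did not overlap at either age, and the 2 highest values of Sox9 in all 39 libraries were mature 14dpr replicates 1 and 3. The log2 fold change was 1.50 ± 0.494 in immature mice (edgeR adjusted p = 0.0186) and 2.59 ± 0.497 in mature mice (edgeR adjusted p = 8.85e-05). The call in immature mice was lost without BL replicate 2, BL replicate 6 or 14dpr replicate 1 (edgeR adjusted p = 0.0606, 0.0629 and 0.0869). It was also lost in the fit blocked by replicate number (edgeR adjusted p = 0.0985). Same-numbered libraries did not deviate together in this comparison (mean correlation -0.0284), so the block had no basis there. Col11a1 rose by 1.45 ± 0.461 and 1.91 ± 0.468 (edgeR adjusted p = 0.0147 and 0.00144), and in immature mice the call was lost without BL replicate 2 (0.0614).

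The levels of the muscle genes moved with these stages. All 20 muscle genes were lower at 14dpr than at baseline in immature mice and 17 of 20 in mature mice by the same test. The mean log2 level of the 20 muscle genes, which moves with the stage itself, was then used as a covariate. Over all genes, 1718 passed with it in immature mice in place of 6667, and 5008 in mature mice in place of 7113. Of the 10 genes, 3 of the 9 calls remained in immature mice, those of Col9a3, Col10a1 and Matn3, and 8 of the 9 in mature mice. Among the calls lost in immature mice, the log2 fold change was 6.19 for Col2a1, 8.24 for Col9a1 and 5.5 for Col9a2 (edgeR adjusted p = 0.0779, 0.051 and 0.0896), against 7.25, 8.40 and 4.99 without the covariate. It was smaller for Sox9 (0.94), Col11a1 (0.17) and Acan (0.67), against 1.50, 1.45 and 2.11 (edgeR adjusted p = 0.607, 0.945 and 0.804). In mature mice the lost call was that of Col11a1, at 1.28 against 1.91 (edgeR adjusted p = 0.0957). All 10 immature genes and 6 mature genes had 14dpr libraries entirely above the baseline libraries, against 20% and 19.2% of all genes.

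Baseline differed between the ages for none of the 10 genes by the test, against 0.585% of all genes. DESeq2 also called 0, and 1 gene, Acan, had an unadjusted p under 0.05 (log2 fold change 1.32, immature over mature, edgeR adjusted p = 0.421). Col2a1 was the gene whose baseline values were separate in the direction of mature mice, with 20.1 to 54.2 CPM against 1.72 to 13.6 CPM in immature mice. Its log2 fold change, immature over mature, was -2.39 ± 1.20 (edgeR adjusted p = 0.438), and it passed when only the 8 baseline libraries were fitted (edgeR adjusted p = 0.0205). Col9a1, whose product accompanies type II collagen in cartilage, did not accompany it there, with 2 to 3 reads in each mature baseline library. Col9a2 and Col10a1 were separate in the opposite direction, with 1.15 to 1.94 against 0.314 to 0.898 CPM for Col9a2. Libraries did not overlap for 4.42% of all genes as higher and for 4.63% as lower in immature mice.

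On the day of resection, all 10 genes had a higher mean in immature than in mature mice, with a median log2 difference of 1.79 against -0.0159 over all genes. Only Col11a1 passed the test, against 0.726% of all genes and 0.571% as higher in immature mice. Col11a1 had 387, 341, 78.5 and 237 CPM in immature and 89.3, 64.6, 64.0 and 52.0 CPM in mature mice, so that 3 immature libraries were above every mature one and replicate 3 was not. Its log2 difference was 1.95 ± 0.473 (edgeR adjusted p = 0.0367). The call was lost when immature replicate 1 or any mature library was left out (edgeR adjusted p = 0.157 without the first and 0.0509 to 0.123 without the others). Same-numbered libraries of the 2 ages deviated together at this stage, with all 4 correlations above 0.1 (0.109 to 0.207). In the fit blocked by replicate number, the adjusted p of Col11a1 was 0.0692, and no gene of the 10 passed.

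Acan and Col10a1 had larger differences at 0dpr that missed the threshold. Acan had 94.9, 46.1, 18.5 and 55.7 CPM in immature and 15.4, 4.12, 2.44 and 10.8 CPM in mature mice, without overlap (log2 difference 2.74 ± 0.703, edgeR adjusted p = 0.0525). Col10a1 had 16.6, 2.84, 3.64 and 16.8 CPM in immature and 0.941, 0.125, 0.222 and 0.139 CPM in mature mice, again without overlap (4.84 ± 1.54, edgeR adjusted p = 0.142). Libraries did not overlap, higher in immature mice, for 3 of the 10 genes, Acan, Col9a2 and Col10a1, and for 2.16% of all genes. DESeq2 called Col11a1, Acan and Col10a1, and 349 of all genes, against 154 by edgeR. In a fit of the 8 libraries of this stage alone with the replicate block, added after seeing the data, 25 of all genes passed. Acan and Col10a1 were among them (edgeR adjusted p = 0.00429 and 0.0201) and Col11a1 was not (0.111). Acan also passed without immature replicate 2, immature replicate 3 or mature replicate 1 (edgeR adjusted p = 0.0364, 0.0241 and 0.0497).

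The libraries at 0dpr differed in the levels of muscle genes and of osteoblast and osteocyte genes. Immature replicate 3 had the highest muscle sum of its group (231201 CPM), the lowest osteoblast and osteocyte sum (4126 CPM, against 16384 to 21008 in the others) and the lowest levels of Col11a1, Col11a2 and Acan. The osteoblast and osteocyte sum was 4700 to 8943 CPM in the mature libraries. The part of tissue content in the difference between the ages was not tested beyond the muscle covariate, under which the log2 difference of Col11a1 was 1.76, against 1.95 without it (edgeR adjusted p = 0.0634).

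Relative to baseline, the 0dpr tissue showed lower type XI collagen in mature mice and no change that passed in immature mice. Col11a2 had 248, 305, 158 and 159 CPM at baseline and 114, 87.6, 84.2 and 59.9 CPM at 0dpr in mature mice, without overlap. Col11a1 had 204, 239, 119 and 110 CPM at baseline and the 4 values given above at 0dpr, also without overlap. They fell by 1.33 ± 0.462 and 1.32 ± 0.465 on the log2 scale (edgeR adjusted p = 0.035 and 0.038), 2 of 10 genes, against 22.5% of all genes and 10.6% as lower. Libraries lay entirely below baseline for 11.5% of all genes, and entirely above it for 12.6%, among them Col10a1 with 10 reads in all at 0dpr. Col11a2 lost the call without BL replicate 1 or 2 or 0dpr replicate 3 or 4 (edgeR adjusted p = 0.0777 to 0.121), and Col11a1 without BL replicate 1 or 2 or any 0dpr library (0.051 to 0.131). With the muscle covariate neither passed, with log2 differences of -0.75 for Col11a2 and -0.40 for Col11a1 (edgeR adjusted p = 0.706 and 0.862). Over all genes, 39 passed with the covariate, in place of 4775. In the same comparison, 20 of 20 muscle genes rose and 8 of 11 osteoblast and osteocyte genes fell. In immature mice 0 of the 10 genes passed, against 10.6% of all genes. Col10a1 came nearest, with 0.309 to 0.957 CPM at baseline and 2.84 to 16.8 CPM at 0dpr, a log2 difference of 3.86 ± 1.31 (edgeR adjusted p = 0.0524), the one gene of the 10 without overlap, against 6.5% of all genes, and it was called by DESeq2 (adjusted p = 0.0202), with RLE scaling, with either other filter, and without 0dpr replicate 2 (edgeR adjusted p = 0.0316).

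Between 0dpr and 2dpr, Col11a2 fell at both ages and Col11a1 fell in immature mice. Col11a2 was 206, 189, 41.2 and 198 CPM in immature libraries at 0dpr and 60.8, 29.0, 40.9 and 86.0 CPM at 2dpr. In mature mice at 2dpr, it was 28.2, 28.1, 30.9 and 9.62 CPM, below every mature library at 0dpr. It fell by 1.55 ± 0.467 in immature mice (edgeR adjusted p = 0.00696) and by 1.85 ± 0.477 in mature mice (edgeR adjusted p = 0.00159). Col11a1 fell by 1.27 ± 0.462 in immature mice (edgeR adjusted p = 0.0239), a call lost when 0dpr replicate 1 or 2 or 2dpr replicate 1, 2 or 3 was left out (0.0566 to 0.0962). In mature mice Col11a1 had a difference of -0.67 (edgeR adjusted p = 0.244). Between these stages the whole tissue was different: 44% of all genes passed in immature mice (22.2% as lower) and 47.6% in mature mice (24.9% as lower, 22.7% as higher), 19.9% lay entirely below 0dpr in mature mice, and 20 of 20 muscle genes fell at both ages. With the muscle covariate the type XI calls did not pass, although the differences were larger than without it, at -2.78 for Col11a1 and -2.52 for Col11a2 in immature mice (edgeR adjusted p = 0.0544 and 0.106) and -3.14 for Col11a2 in mature mice (0.117). Over all genes, 1510 passed with the covariate in immature mice in place of 9324, and 1285 in mature mice in place of 10100.

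Sox9 was the gene of the 10 that rose between 0dpr and 2dpr, in mature mice. It had 4.71, 1.37, 1.66 and 2.08 CPM at 0dpr and 3.39, 4.42, 14.0 and 2.41 CPM at 2dpr, with overlapping libraries. The log2 fold change was 1.30 ± 0.499 (edgeR adjusted p = 0.0309), and it was 0.48 without 2dpr replicate 3 (edgeR adjusted p = 0.406), the library that stood apart. The call was also lost without 0dpr replicate 2, 3 or 4 (edgeR adjusted p = 0.0849, 0.101 and 0.0598) and with the muscle covariate (log2 difference 0.45, edgeR adjusted p = 0.903). In immature mice, Sox9 had 4.33, 0.863, 2.73 and 3.48 CPM at 0dpr and 4.92, 6.87, 5.11 and 5.92 CPM at 2dpr, without overlap, as for 20.4% of all genes (log2 difference 1.01 ± 0.491, edgeR adjusted p = 0.0945). Matn3 in mature mice had a difference of 2.74 (edgeR adjusted p = 0.0668) and passed without 0dpr replicate 4 or 2dpr replicate 1, 3 or 4 (0.0213 to 0.0418), and Acan passed there without 2dpr replicate 4 (0.0226).

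At 2dpr none of the 10 genes passed between the ages, by edgeR or DESeq2, against 0.627% of all genes. The 3 genes with an unadjusted p under 0.05 were Col10a1, Col11a1 and Col11a2, all with a higher mean in immature mice. Col10a1 had 50.3, 3.26, 39.3 and 7.09 CPM in immature mice and 0, 6.15, 0 and 0 CPM in mature mice (log2 difference 4.11 ± 1.10, edgeR adjusted p = 0.0641). All 71 mature reads of Col10a1 at this stage came from replicate 2, which also held all 113 mature reads of Col9a1. Without this library, the immature mean was at least 356-fold for Col10a1 and 83.3-fold for Col9a1 above a floor of 3 reads over the other 3 mature libraries. That floor is 0.0702 CPM, and single immature libraries were as low as 3.26 and 0.450 CPM. Both genes then passed (edgeR adjusted p = 0.00745 and 0.0419, against 0.0641 and 0.644 with all libraries). Since this library was singled out by these same reads, the folds and calls without it are not support. Col10a1 also passed without immature replicate 2 (edgeR adjusted p = 0.0482).

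Between 2dpr and 5dpr, Col11a1 rose at both ages and Acan in immature mice. Col11a1 was 95.3, 56.2, 84.9 and 195 CPM at 2dpr and 307, 500.2, 483 and 572 CPM at 5dpr in immature mice. In mature mice it was 50.6, 58.5, 56.1 and 5.51 CPM at 2dpr and 122, 141 and 149 CPM at 5dpr. Neither age overlapped between the stages, and every immature 5dpr library was above every mature one. Col11a1 rose by 2.11 ± 0.472 in immature mice (edgeR adjusted p = 0.00311) and by 1.69 ± 0.494 in mature mice (edgeR adjusted p = 0.0173), which became 0.0594 without mature 5dpr replicate 4.

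Acan in immature mice was 24.4, 9.79, 22.3 and 35.8 CPM at 2dpr and 72.0, 148, 152 and 194 CPM at 5dpr. It rose without overlap by 2.62 ± 0.657 (edgeR adjusted p = 0.00867). In mature mice, Acan was 7.85, 42.0, 28.9 and 0.879 CPM and then 42.5, 18.5 and 26.3 CPM (log2 difference 0.57, edgeR adjusted p = 0.635). The interaction was 2.05 (95% interval 0.14 to 3.96, edgeR adjusted p = 0.601). Of the 10 genes, 2 passed in immature mice, against 8.05% of all genes and 4.37% as higher, and 3 (Sox9 as well) lay entirely above 2dpr, against 9.85%. In mature mice 1 passed, against 14.5% of all genes and 8.16% as higher, and it was also the one without overlap, against 13%. This number was 4 without mature 2dpr replicate 2, when Col9a2, Col10a1 and Matn3 were added. That library held the highest mature 2dpr value of each of these 3 genes, so the added calls follow from leaving it out.

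Col10a1 was the 1 gene of the 10 with a lower mean at 5dpr than at 2dpr in immature mice. It had 1.11, 0.501, 8.68 and 6.42 CPM at 5dpr (log2 difference -2.43 ± 0.964, edgeR adjusted p = 0.126), while in mature mice it had 15.7, 0.508 and 0.360 CPM (1.85 ± 1.19, edgeR adjusted p = 0.324). The interaction was -4.28 (95% interval -7.37 to -1.19, unadjusted p = 0.00804 and edgeR adjusted p = 0.539).

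At 5dpr, 9 of the 10 genes had a higher mean in immature mice and none passed, where no gene of the 21204 passed. DESeq2 called 0 of the 10. An unadjusted edgeR p under 0.05 was found for 5 of them, Col9a1, Col9a3, Col11a1, Col11a2 and Acan, against 1081 of all genes. Acan was separate, with 72.0 to 194 against 18.5 to 42.5 CPM (log2 difference 2.29 ± 0.716, edgeR adjusted p = 0.555), as was Col11a1, with 307 to 572 against 122 to 149 CPM (1.76 ± 0.516, edgeR adjusted p = 0.439). These are 2 of 10 genes, against 4.05% of all genes. Col11a1 passed when only the 7 libraries of 5dpr were fitted (edgeR adjusted p = 0.0158). Col2a1 had 15.9, 17.7, 129 and 223 CPM in immature and 49.3, 6.14 and 2.37 CPM in mature mice, a difference of 2.36 ± 1.25 that the spread within each age overlapped.

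From 5dpr to 14dpr, 2 of the 10 genes rose in immature mice, against 3.18% of all genes and 1.73% as higher, and 6 rose in mature mice, against 4.18% and 1.95%. In immature mice these were Col10a1, by 5.77 ± 1.07 (edgeR adjusted p = 0.00089), and Col11a2, by 1.88 ± 0.467 (edgeR adjusted p = 0.0167). Col10a1 remained called in all 15 alternatives, with 6.42 when 5dpr replicate 4 was left out, and Col11a2 lost the call without 5dpr replicate 2 or 4 or 14dpr replicate 4 (0.0604 to 0.0951) and with the muscle covariate (1.62, edgeR adjusted p = 0.0901). Libraries of 8 of the 10 genes, all but Sox9 and Acan, lay entirely above 5dpr in immature mice, against 7.43% of all genes. With only the libraries of these 2 groups fitted, the same 8 genes passed, but so did 1875 of all genes, in place of 674. DESeq2 called 4 (Col2a1, Col9a3, Col10a1 and Col11a2) and 1029 of all genes.

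In mature mice, the genes that rose from 5dpr to 14dpr were Col2a1 (5.36 ± 1.44, edgeR adjusted p = 0.0257), Col9a1 (4.96 ± 1.31, 0.0227), Col9a3 (3.26 ± 0.869, 0.0245), Acan (3.24 ± 0.748, 0.00833), Col11a1 (2.20 ± 0.526, 0.0109) and Col11a2 (2.28 ± 0.530, 0.00885). Only Acan and the type XI genes were without overlap, against 11% of all genes. With 3 libraries at 5dpr, these calls were sensitive to a left-out library, as were those of all genes (886, and 409 to 688 with a library left out). Without 5dpr replicate 4, 0 of the 10 genes passed, when the 6 edgeR adjusted p ran from 0.0515 to 0.133. Their log2 fold changes were then 4.83, 4.59, 2.96, 3.17, 2.27 and 2.05, in the order above. The genes Col2a1, Col9a1 and Col9a3 also lost the call without 5dpr replicate 3 (edgeR adjusted p = 0.139, 0.131 and 0.145) or 14dpr replicate 3 (0.0979, 0.0904 and 0.174), with log2 fold changes of 4.04, 4.01 and 2.11 in the last case. Acan did so without 5dpr replicate 3 (0.0714), Col11a1 without 5dpr replicate 1 or 3 (0.0613 and 0.0573) and Col11a2 without 5dpr replicate 1 (0.0628). Without 5dpr replicate 1, the fold changes of Col2a1, Col9a1 and Col9a3 were 7.48, 6.22 and 4.16, and Col9a2 and Col10a1 passed (edgeR adjusted p = 0.0373 and 0.0125). Without 14dpr replicate 4, 7 genes passed, Col9a2 being added.

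At 14dpr, none of the 10 genes differed between the ages by the test, nor by DESeq2, against 0.00943% of all genes. Col10a1 and Col11a2 had the higher and Sox9 the lower mean in immature mice among the 3 genes with an unadjusted p under 0.05. Col10a1 had a log2 difference of 2.55 ± 0.901 (edgeR adjusted p = 0.887), Col11a2 of 0.98 ± 0.456 and Sox9 of -1.06 ± 0.464 (edgeR adjusted p = 1 for both). Col2a1, at 0.29, had a 95% interval of -1.83 to 2.40, so that differences of several fold in either direction were within its error.

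**Figure D2:**
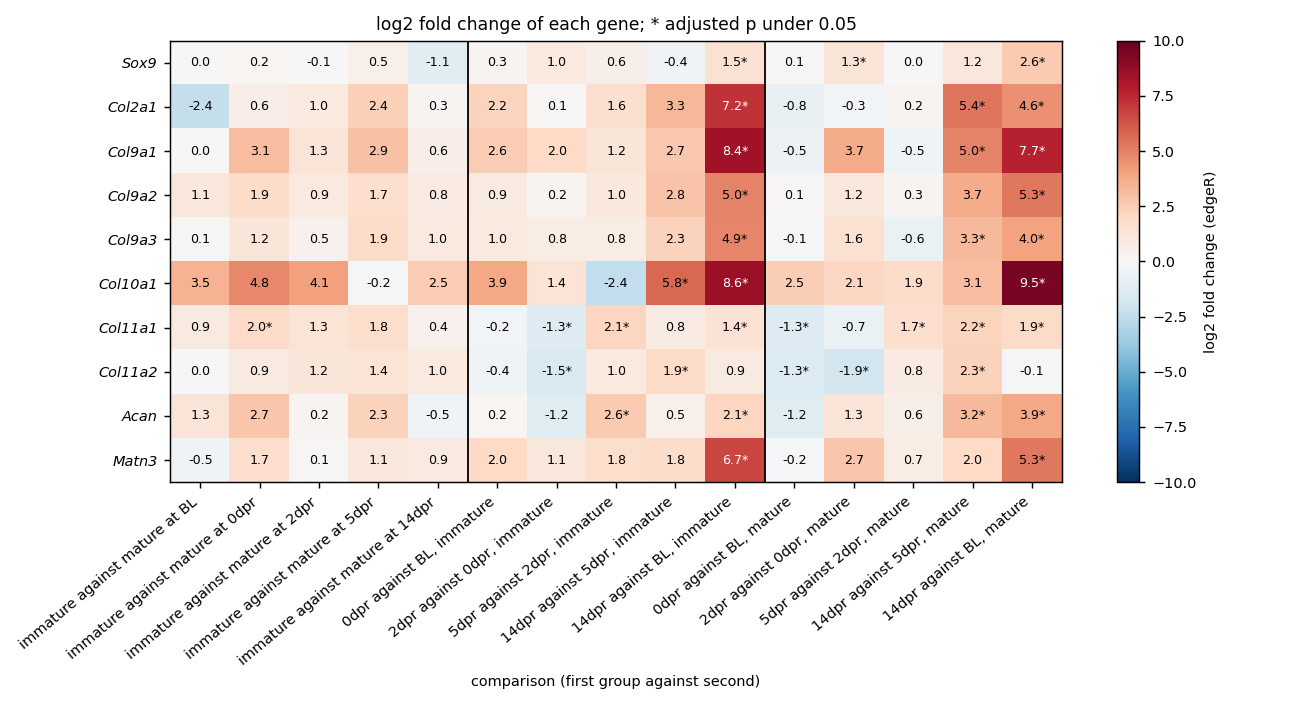
Log2 fold change of the 10 genes (rows) in the 15 comparisons of 2 groups (columns), with the value in each cell and an asterisk where the edgeR adjusted p was under 0.05. The columns for 14dpr against BL hold 9 asterisks at each age, while the 5 columns between the ages hold 1, that of Col11a1 at 0dpr, and the Col10a1 values against mature BL rest on 2 reads in that group.

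The course over the stages was also compared between the ages directly. None of the 10 genes passed in any of the 5 interactions of age with a step or in the single test of age by stage over all 5 stages, by edgeR or DESeq2, and 39 genes of 21204 (0.184%) passed the latter. In the separate interactions, 0.0141% of all genes passed for 0dpr against BL, 0.0613% for 2dpr against 0dpr, 0 for 5dpr against 2dpr, 0 for 14dpr against 5dpr and 0.0472% for 14dpr against BL. An unadjusted edgeR p under 0.05 was found for 0, 1, 2, 2 and 0 of the 10 genes in these, against 1712, 2382, 1715, 901 and 1693 of all genes. In the test over all stages, where 2147 of all genes had one, it was found for 1 of the 10. That gene was Acan (unadjusted p = 0.00691, edgeR adjusted p = 0.303). Acan changed by 2.62 from 2dpr to 5dpr and by 0.49 from 5dpr to 14dpr in immature mice, and by 0.57 and 3.24 in mature mice, and its interaction for the second step was -2.74 (95% interval -4.63 to -0.86, unadjusted p = 0.00556, edgeR adjusted p = 1). The comparisons that share a group share its libraries.

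Col2a1, Col9a1, Col9a2, Col9a3, Col10a1 and Matn3 were high in the same library in some groups and not in others. In immature mice, all 6 had their highest value in replicate 4 at 0dpr, in replicate 1 at 2dpr and in replicate 1 at 14dpr. In mature mice, all 6 had their highest value in replicate 2 at 2dpr and in replicate 1 at 5dpr, and 5 of 6 had it in replicate 3 at 14dpr, the exception being Col10a1. The library most often highest held 4 of the 6 genes at 5dpr and 2 of the 6 at baseline in immature mice, and 3 of the 6 at 0dpr and 2 of the 6 at baseline in mature mice. Mature 14dpr replicate 4 was the lowest of its group for all 10 genes, with Col2a1 at 9.87 CPM and Col10a1 at 5.82 CPM, and mature 2dpr replicate 4 was the lowest for 9 of the 10 with ties included, since it shares 0 reads of Col9a1 and Col10a1 with replicates 1 and 3. Over all 39 libraries, the deviation of each gene from its group mean was compared between genes, as a description over libraries that share their depth and tissue content. The median correlation with the other 9 genes was 0.712 for Col9a1 and 0.702 for Col9a2, and 0.348 for Sox9, 0.364 for Col11a2 and 0.367 for Col11a1.

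**Figure D3:**
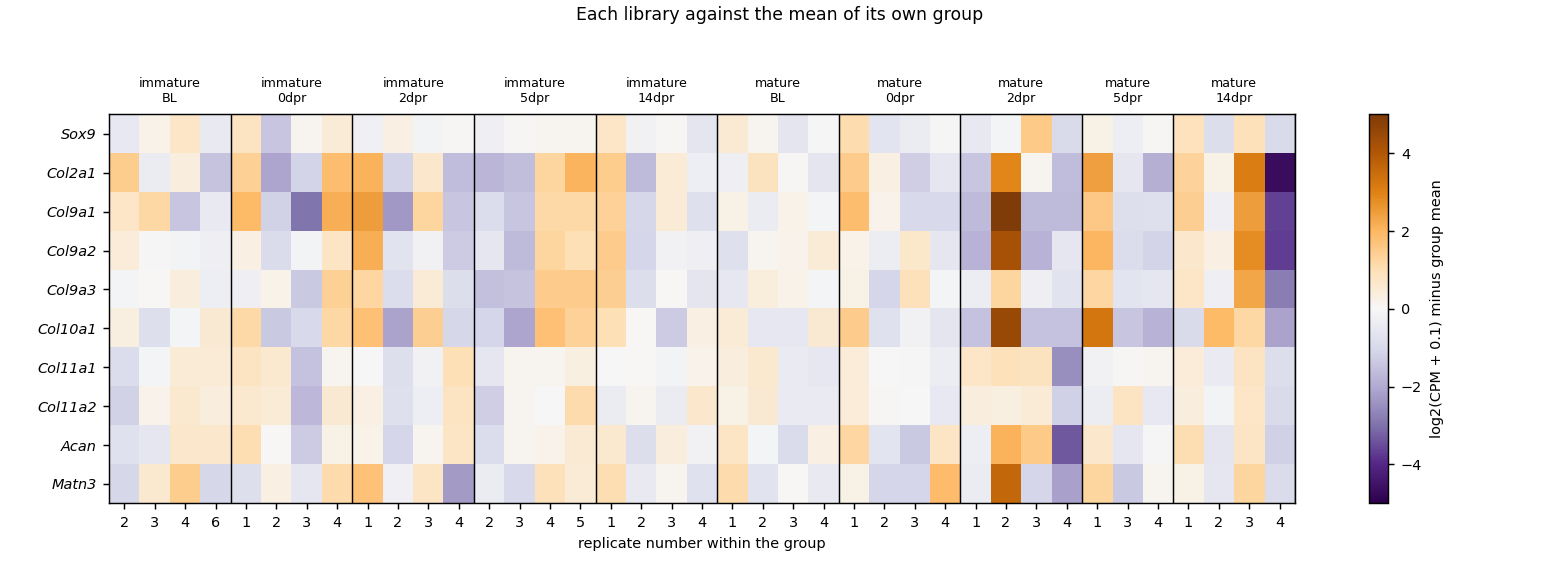
Deviation of each library (columns, numbered by replicate within its group) from the mean of its own group, in log2(CPM + 0.1), for the 10 genes (rows). Mature 2dpr replicate 2 is far above its group for Col2a1, the type IX genes, Col10a1 and Matn3, and mature 14dpr replicate 4 is below its group for all 10 genes.

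The make-up of the cartilage signal, given as reads of Col10a1 per 100 reads of Col2a1 in the same library, is described here without a test, since it was chosen after its values were seen. In immature mice, it ran from 5.88 to 55.6 at baseline, from 26.7 to 69.7 at 0dpr, from 37.7 to 132 at 2dpr, from 2.84 to 7.00 at 5dpr and from 8.71 to 99.9 at 14dpr. In mature mice, it ran from 0 to 0.559, from 0.671 to 3.45, from 0 to 11.7, from 8.26 to 31.9 and from 2.09 to 58.9 at the same stages. The ratio was higher in every immature than in every mature library up to 2dpr, lower in every immature than in every mature library at 5dpr, and overlapping at 14dpr. Counts of Col10a1 behind the ratio were low, with 25 reads in the 4 immature and 2 in the 4 mature libraries at baseline, 10 in the 4 mature libraries at 0dpr, and 0 in 3 of the 4 mature libraries at 2dpr. At 5dpr the ranges lie close together, with 7 Col10a1 reads for 100 of Col2a1 in the highest immature library and 10 for 121 in the lowest mature one, and other libraries there had 4 and 5 Col10a1 reads.

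**Figure D4:**
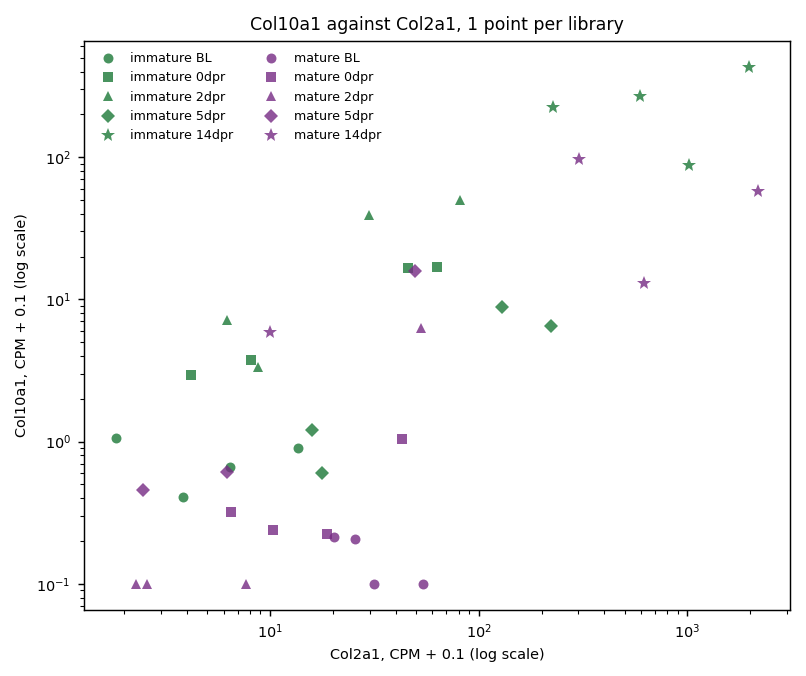
Col10a1 (y axis) against Col2a1 (x axis), both as CPM + 0.1 on log scales, with 1 point per library, immature in green, mature in purple and the stage by symbol. At 0dpr and 2dpr, immature libraries have more Col10a1 than mature libraries at similar levels of Col2a1, at BL the ages share no level of Col2a1, and the 14dpr libraries of the 2 ages overlap.

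Type XI collagen followed the bone genes of the tissue more than the other cartilage genes did. The summed level of the 11 osteoblast and osteocyte genes, which include Col1a1, Col1a2, Sp7 and Bglap, ran from 10535 to 24489 CPM at baseline and from 32522 to 52618 CPM at 14dpr in immature mice, and from 9496 to 20064 and from 23316 to 41042 CPM in mature mice. At 2dpr it was 9309 to 15719 CPM in immature and 3252 to 5937 CPM in mature mice, without overlap, and at 5dpr 14469 to 29936 and 16355 to 18454 CPM. These sums are led by the most abundant genes. From baseline to 14dpr, 5 of the 11 genes rose in immature mice and none fell (median log2 fold change 0.74). In mature mice, 2 rose and 3 fell (median -0.58). Of all genes, 16.4% and 17.1% passed as higher, and 31.4% and 33.5% in either direction. The 2 that rose in mature mice were near the share of all genes. Over the 39 libraries, the deviations from the group mean of this list correlated with those of Col11a2 at 0.81, of Col11a1 at 0.783 and of Acan at 0.521, and with those of Col2a1 at 0.0525 and Col10a1 at 0.0196. A list of 15 other cartilage matrix genes gave 0.834 for Col2a1, 0.79 for Col10a1, 0.599 for Acan, 0.449 for Col11a1 and 0.383 for Col11a2. Of 11 lists, Acan deviated most like the tendon and fibrous tissue list (0.726). Sox9 also deviated most like that list (0.461) and opposite to the leukocyte list (-0.586). The libraries share their tissue content and depth in all of these values.

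**Figure D5:**
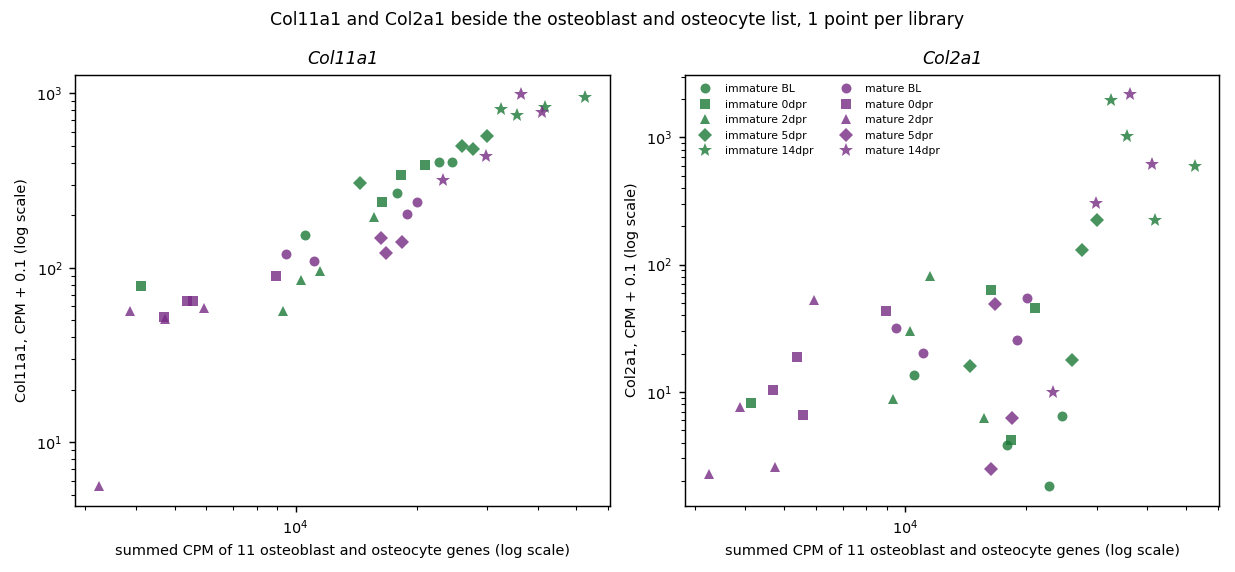
Level of Col11a1 (left) and Col2a1 (right), as CPM + 0.1 on log scales, against the summed CPM of the 11 osteoblast and osteocyte genes (x axis, log scale), with 1 point per library. Col11a1 lies along a rising band from mature 2dpr replicate 4 at 5.5 CPM to the 14dpr libraries, while Col2a1 spreads over a wide range at a given sum.

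The genes most like 4 of the members in their level over the 39 libraries were looked up among 16137 genes with a mean of at least 1 CPM. For Col11a1 they were Col1a2 (r = 0.942), Col8a2 (0.930), Col24a1 (0.929), Cdh11 (0.925) and Edil3 (0.922), of which Col1a2 encodes a chain of type I collagen, the collagen of bone. For Col2a1, they were Snorc (0.885), Comp (0.850), Clec3a (0.849), Panx3 (0.840) and Cnmd (0.826), several of them known as cartilage genes. For Col10a1 they were Cnmd (0.861), Snorc (0.842), Clec3a (0.803), Hapln1 (0.792) and Pi15 (0.790). For Sox9 they were Gli3 (0.882), which encodes a transcription factor of hedgehog signalling, Slc2a10 (0.848), Kctd17 (0.839), Fndc3b (0.839) and Fn1 (0.834), which encodes fibronectin, and none of these was among the 5 most like any of the other 3.

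Other cartilage genes were followed by the same comparisons from 4 lists. At most 3 called genes were named per direction and comparison, so a gene named at 1 age may also have passed at the other. Of 15 other matrix genes, 9 rose from baseline to 14dpr in immature mice (median log2 fold change 1.26) and 11 in mature mice (2.54), against 16.4% and 17.1% of all genes, and none fell. Snorc, a cartilage proteoglycan gene, had 0 reads in all immature baseline libraries and a mean of 8.02 CPM at 14dpr. In mature mice it rose from 0.0262 to 3.04 CPM (edgeR adjusted p = 0.00765), and Cnmd, which encodes chondromodulin, from 0.496 to 10.5 CPM (log2 fold change 4.38, edgeR adjusted p = 0.00605). From 5dpr to 14dpr, 3 of the 15 rose in immature mice and 4 in mature mice, against 1.73% and 1.95% of all genes, among them Chad (2.71, edgeR adjusted p = 0.0332) and Cilp2 (2.16, 0.0141) in the former and Cilp2 (3.94, 0.000134) and Comp (3.13, 0.00101) in the latter. Between the ages, 1 of the 15 passed at baseline, Fibin (1.14, edgeR adjusted p = 0.0103), against 0.585% of all genes. At 2dpr, 1 of the 15 passed, against 0.627% of all genes. It was Cilp2, at 4.84 CPM in immature and 0.335 CPM in mature mice (3.79, edgeR adjusted p = 0.00514).

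Of the 12 chondrocyte regulators tested, 3 were higher and 2 lower at 14dpr than at baseline in immature mice. In mature mice, these numbers were 6 and 1. Calls in either direction were thus 5 of 12 and 7 of 12, against 31.4% and 33.5% of all genes, and those in immature mice were near the background. Ihh, which encodes the hedgehog ligand of prehypertrophic chondrocytes, rose in immature mice from 0.0571 to 2.92 CPM (edgeR adjusted p = 0.000518). Sox6, a partner of SOX9 that muscle also expresses, fell at both ages (-2.24 and -2.40, edgeR adjusted p = 8.94e-11 and 1.39e-11), and it also fell between 0dpr and 2dpr (-2.54 and -2.63, edgeR adjusted p = 2.35e-12 and 5.04e-13), when all 20 muscle genes fell. From 2dpr to 5dpr, 3 of the 12 rose in immature and 4 in mature mice, against 4.37% and 8.16% of all genes. Fgfr3, a receptor of growth plate chondrocytes, was among them in immature mice (1.42, edgeR adjusted p = 0.00665). Pthlh, a signal that delays chondrocyte hypertrophy, was among them in mature mice (1.83, edgeR adjusted p = 0.0177).

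Of 10 genes of hypertrophy and cartilage resorption, 7 were higher and 1 lower at 14dpr than at baseline in immature mice. In mature mice, these numbers were 4 and 1. As higher, 16.4% and 17.1% of all genes passed, and 31.4% and 33.5% in either direction. Panx3, a channel of hypertrophic chondrocytes and osteoblasts, rose from 0.263 to 22.5 CPM in immature mice (6.35, edgeR adjusted p = 1.75e-06), and Vegfa, the angiogenic factor, was the gene that fell at both ages (-0.65 and -0.62, edgeR adjusted p = 0.0278 and 0.0339). Between 5dpr and 14dpr, 4 of the 10 rose in immature and 6 in mature mice, against 1.73% and 1.95% of all genes. Mmp13, the collagenase that cleaves type II collagen, was among them in immature mice, from 131 to 654 CPM (2.33, edgeR adjusted p = 0.000137). Panx3 was among them in mature mice (3.15, edgeR adjusted p = 0.0245). Adamts4, an aggrecanase, differed between the ages at 0dpr, where immature mice had 11.2 and mature mice 4.32 CPM (1.36, edgeR adjusted p = 0.0111) and rose from 0dpr to 2dpr at both ages (2.20 and 3.78, edgeR adjusted p = 1.59e-08 and 6.2e-13). Of 10 genes of proteoglycan synthesis, 7 rose from baseline to 14dpr in immature mice and 8 in mature mice, against 16.4% and 17.1% of all genes, and in mature mice Chst3 fell (-1.48, edgeR adjusted p = 0.0154). None of these 4 lists had a gene that passed between the ages at 5dpr or 14dpr, where 0 and 2 of all 21204 genes did.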

How the data were processed

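Per the labels, RNA was extracted from rib tissue and libraries were made with a stranded TruSeq kit. The authors aligned the reads to GRCm38 with STAR 2.5.2a and deposited read counts per gene, and the strand setting of the counting is not given in the sources used here. A second deposited table holds signal values, the authors' TMM-normalized CPM, which equal edgeR's within 5.1e-11. All 39 libraries with a column were mapped to their group by title, 0 columns had no sample, and no pair of libraries agreed within counting noise (smallest ratio to counting variance 6.44).

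The counts of the 21204 genes in the filtered table were fitted with edgeR 4.0.16 in R 4.3.3 (TMM factors, quasi-likelihood test, 1 coefficient per group, Benjamini-Hochberg adjustment over all genes, threshold 0.05). All 10 members are given in every comparison, of 4 other cartilage lists at most 3 called genes per direction and comparison with a mean of at least 1 CPM, and for likeness the 5 genes with the highest correlation of log2 CPM (prior count 2). The members and lists were chosen with earlier results of these data known. Lengths came from GENCODE vM21 gene models on GRCm38 and upstream windows from RefSeq GRCm38.p6. Alternatives were RLE factors, DESeq2 1.42.0, other filters, a fit of the compared libraries only, a replicate block, a muscle covariate and each library left out. A fit of the 0dpr libraries with a block was added after seeing the data. Replicate numbers were taken to pair the samples only between the ages at 0dpr, where all 4 correlations of same-numbered deviations were over 0.1 (0.109 to 0.207). This pairing comes from the data and not from the labels. The procedure was tested on simulated data. Intervals for read ratios and floors of 3 reads cover counting error only.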

Additional observations from a re-analysis of the deposited data

Results flagged for a closer look

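In 11 cases, 1 library lay further from the rest of its group than Dixon's test for its group size allows. Chance flags about 1 in 20 groups, and 90 were looked at. Of these, 6 were in mature 2dpr replicate 2, where Col2a1 was 52.7 CPM (next highest 7.55), Col9a1 9.79 CPM (next 0), Col9a2 6.5 CPM (next 0.139), Col9a3 6.5 CPM (next 2.22), Col10a1 6.15 CPM (next 0) and Matn3 5.37 CPM (next 0.248). In mature 2dpr replicate 4, Col11a1 was 5.5 CPM and Col11a2 was 9.62 CPM, below next values of 50.6 and 28.1 CPM. Col11a2 was 41.1 CPM in immature 0dpr replicate 3, where the next lowest value was 189 CPM, in the library with the lowest osteoblast and osteocyte sum of its group. Col9a2 was 8.90 CPM in immature 2dpr replicate 1 (next 1.68 CPM), and Col10a1 was 0.941 CPM in mature 0dpr replicate 1 (next 0.222 CPM).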

How the results depend on the processing

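No value that passed changed direction under any alternative. Of 1410 values under settings other than a left-out library, 1361 kept their side of the threshold, 22 no longer passed and 27 came to pass, and of 1950 with a library left out, 1884, 48 and 18 did. Among those that kept their side, 36 and 105 that did not pass changed sign. The cause of the changes below was not tested. The number of the 10 genes that passed between the ages at 0dpr, 1 in the report, was 3 with DESeq2, 2 with filterByExpr, 2 with no filter, 2 with the 0dpr libraries and a block, and 0 with the compared libraries only, with the replicate block or with the muscle covariate. Over all genes, 154 in the report, it was 349, 179, 197, 25, 0, 122 and 148 in the same order. Between the ages at BL and at 5dpr the number of the 10 was 1 in place of 0 with the compared libraries only. Over all genes it was 475 in place of 124 at BL and 6 in place of 0 at 5dpr. At 2dpr, 1 of the 10 passed in place of 0 with no filter, and 164 of all genes in place of 133. From BL to 0dpr in immature mice the number of the 10 was 1 in place of 0 with RLE factors, DESeq2, filterByExpr or no filter. Over all genes it was 2480, 3218, 2552 and 1944 with these, in place of 2257. From 0dpr to 2dpr, 2 became 1 with the compared libraries only and 0 with the muscle covariate at both ages. Over all genes, 9324 became 7832 and 1510 in immature mice, and 10100 became 6120 and 1285 in mature mice. From 2dpr to 5dpr in mature mice, 1 became 0 with the compared libraries only (over all genes 3084 became 714). From 5dpr to 14dpr in immature mice, 2 became 4 with DESeq2, 8 with the compared libraries only and 1 with the muscle covariate. Over all genes, 674 became 1029, 1875 and 448 with these. From BL to 14dpr in immature mice, 9 became 3 with the muscle covariate (over all genes 6667 became 1718). From BL to 0dpr in mature mice, 2 became 0 with this covariate (over all genes 4775 became 39). With a library left out, the number of the 10 ran from 0 to 2 between the ages at 0dpr and at 2dpr, 0 to 1 from BL to 0dpr in immature mice, 1 to 2 from 0dpr to 2dpr and from 5dpr to 14dpr, 2 to 2 from 2dpr to 5dpr and 7 to 9 from BL to 14dpr there. Over all genes it ran from 68 to 496 and from 27 to 286 between the ages at 0dpr and 2dpr. In immature mice it ran from 806 to 3413, 8377 to 9250, 341 to 612, 1064 to 1415 and 5652 to 6103 for the steps in the order given. For mature mice the number of the 10 ran from 0 to 2 from BL to 0dpr, 1 to 4 from 0dpr to 2dpr, 0 to 4 from 2dpr to 5dpr, 0 to 7 from 5dpr to 14dpr and 9 to 9 from BL to 14dpr. Over all genes it ran from 3099 to 5451, 9111 to 10343, 1681 to 3250, 409 to 688 and 6066 to 6630 in the same order. By rank correlation, 1 of the 5 genes most like Sox9, 4 of Col2a1, 3 of Col10a1 and 3 of Col11a1 were shared with the report. The replicate block also took the call from Sox9 from BL to 14dpr in immature mice (edgeR adjusted p = 0.0985) and gave it to Sox9 from 0dpr to 2dpr (0.0481), and it changed no other call. Over 51 same-numbered pairs the mean correlation of deviations was -0.0135. With 1 read worth up to 0.159 CPM, levels of a few reads, as in baseline Col9a1 and Col10a1, were not precise.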
